A study of Mus musculus with 45 samples.

Results

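Blood-lineage miRNAs in alveolar macrophages (AM) were read as the rows of 5 named mature miRNAs: mmu-mir-142a-3p, mmu-mir-142a-5p, mmu-mir-223-3p, mmu-mir-223-5p and mmu-mir-150-5p. They were chosen by name, as the pan-leukocyte, myeloid and lymphoid miRNAs, with earlier results on miR-142a-3p in these mice known. The 6 deposited tables, 1 for each genotype and sex, listed 476 different miRNAs, of which 206 were in every table. All 5 members were listed in 5 tables. In co-ex males 4 of the 5 were listed and mmu-mir-223-5p was not.

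Small RNA was sequenced from the AM of 45 mice, whose strain the sample labels give as C57BL/6 and the design text as C57BL/6J, 21 males and 24 females, each 12 weeks old. SP-A2 mice are human transgenic (hTG) mice that carry the SP-A2 (1A0) variant of surfactant protein A, co-ex mice carry both SP-A1 (6A2) and SP-A2 (1A0), and the KO mice have no SP-A. Both hTG lines lack the mouse SP-A gene as the KO mice do, so every group in the study shares that deletion. Mice breathed filtered air (FA) or ozone (O3, 2 ppm) for 3 h, and AM were recovered by lavage of the lung 18 h later. The labels number 4 mice in each group of 1 genotype, sex and exposure, except for 3 in the SP-A2 males after FA, 3 in the SP-A2 males after O3 and 3 in the co-ex males after O3.

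miRNAs are cut from a hairpin precursor whose 2 arms, 5p and 3p, can each give a mature strand, and the seed, bases 2 to 8 of the mature strand, chooses most of the messages that it represses. miR-142 is made across the blood lineages and both of its arms act as mature miRNAs. miR-223 belongs to granulocytes, monocytes and macrophages, where its 3p arm is the main strand and restrains inflammatory signalling in neutrophils and macrophages. miR-150 marks mature lymphocytes, in which it represses the transcription factor Myb. A lavage from the lung is mostly macrophages, with other blood cells and some lining cells mixed in.

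The mature sequences are shown because the comparisons turn on strands of the same hairpin. RefSeq (GRCm38.p6) held 4 of the 5, each printed 5′ to 3′ with the seed in capitals.

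mmu-mir-142a-3p: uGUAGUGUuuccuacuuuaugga

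mmu-mir-142a-5p: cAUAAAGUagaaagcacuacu

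mmu-mir-223-3p: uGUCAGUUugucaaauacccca

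mmu-mir-223-5p: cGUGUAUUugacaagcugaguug

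No 2 of these strands shared a seed, and none of the 1679 mature mouse miRNAs in the RefSeq set had the seed of any of the 4. Each of the 4 thus has a seed of its own. The strands were 21 to 23 bases long, with a GC content of 34.8% in mmu-mir-142a-3p, 33.3% in mmu-mir-142a-5p, 40.9% in mmu-mir-223-3p and 43.5% in mmu-mir-223-5p.

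The hairpins show how the arms lie, with both mature strands in capitals.

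Mir142: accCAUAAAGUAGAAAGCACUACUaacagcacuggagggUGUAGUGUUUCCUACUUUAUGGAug

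Mir223: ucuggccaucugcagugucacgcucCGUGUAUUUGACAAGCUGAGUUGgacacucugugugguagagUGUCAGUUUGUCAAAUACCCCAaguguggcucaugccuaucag

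The Mir142 hairpin is at chr11:87756864-87756927 on the plus strand, where the GENCODE M21 annotation puts it inside the long noncoding gene Mir142hg and outside its exons, with Mir142b across it on the minus strand. The Mir223 hairpin is at chrX:96242817-96242926 on the plus strand and overlaps an annotated exon of the noncoding gene F630028O10Rik. The arms are 15 bases apart in Mir142 and 19 bases apart in Mir223. The build that the deposited tables were made on is not given in the sources used here, so the positions are those of RefSeq.

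The values in the tables are reads divided by a scaling factor for each mouse, and they are called normalized values here. Every value came out as a whole number of reads, and the listed miRNAs held 137965 to 2884013 reads per mouse, with a median of 766213. That total covers the listed miRNAs only and is not the depth of the library. mmu-mir-223-3p was the deepest member, with 177 to 11643 reads in the 45 mice and a median of 2011. mmu-mir-223-5p was the shallowest, with a median of 31 reads in the 38 mice of its 5 tables. Nothing in the labels says that mice share a litter or a preparation, and p-values set a difference against the spread between these mice.

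Markers of other cells were read beside the members, as a share of the listed reads. The 5 members together held a median of 0.172% to 1.17% of the listed reads in a group. Of the 12 mesenchymal markers, such as miR-143-3p and miR-199a-3p, 8 to 11 were listed in a table, and every listed one had a positive O3 minus FA difference in each table. Their median share was 0.638% after FA and 1.44% after O3 in SP-A2 males, and 0.225% and 1.75% in KO males, and it was higher after O3 in the other 4 tables as well. Of the 14 epithelial markers, 10 to 13 were listed, with medians of 0.434% to 0.988% after FA and 0.977% to 1.51% after O3. The erythroid markers held at most 0.172% of the reads in any mouse, and the endothelial markers, listed in SP-A2 mice and KO males, at most 0.107%. The endothelial median was 0.000648% after FA and 0.0256% after O3 in SP-A2 males, 0% and 0.0149% in SP-A2 females, and 0% and 0.0207% in KO males. The macrophage strand mmu-mir-511-5p was listed in all 6 tables, with group means of 26.2 to 228.9, which is low beside mmu-mir-223-3p. The part of these other cells in the results below was not tested, and fewer cells of a type and less RNA per cell cannot be told apart in bulk samples.

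Values of 0 were found mostly in the co-ex tables and in the KO female table. mmu-mir-142a-3p was at 0 in 8 of 45 mice, mmu-mir-223-5p in 9 of 38, mmu-mir-142a-5p in 2 of 45 and mmu-mir-150-5p in 1 of 45, while mmu-mir-223-3p was above 0 in every mouse. In 7 of the 8 mice with mmu-mir-142a-3p at 0, the other arm had 55 to 299 reads. Taking the values for which the other mice of the table averaged at least 100, 15 of 196 member values were 0, which is 7.65%, against 5.89% over all miRNAs. The share over all miRNAs was 15.1% in co-ex males and 0% in SP-A2 males. A 0 in these tables is therefore given as listed at 0 and not as absence of the miRNA.

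**Figure D1:**
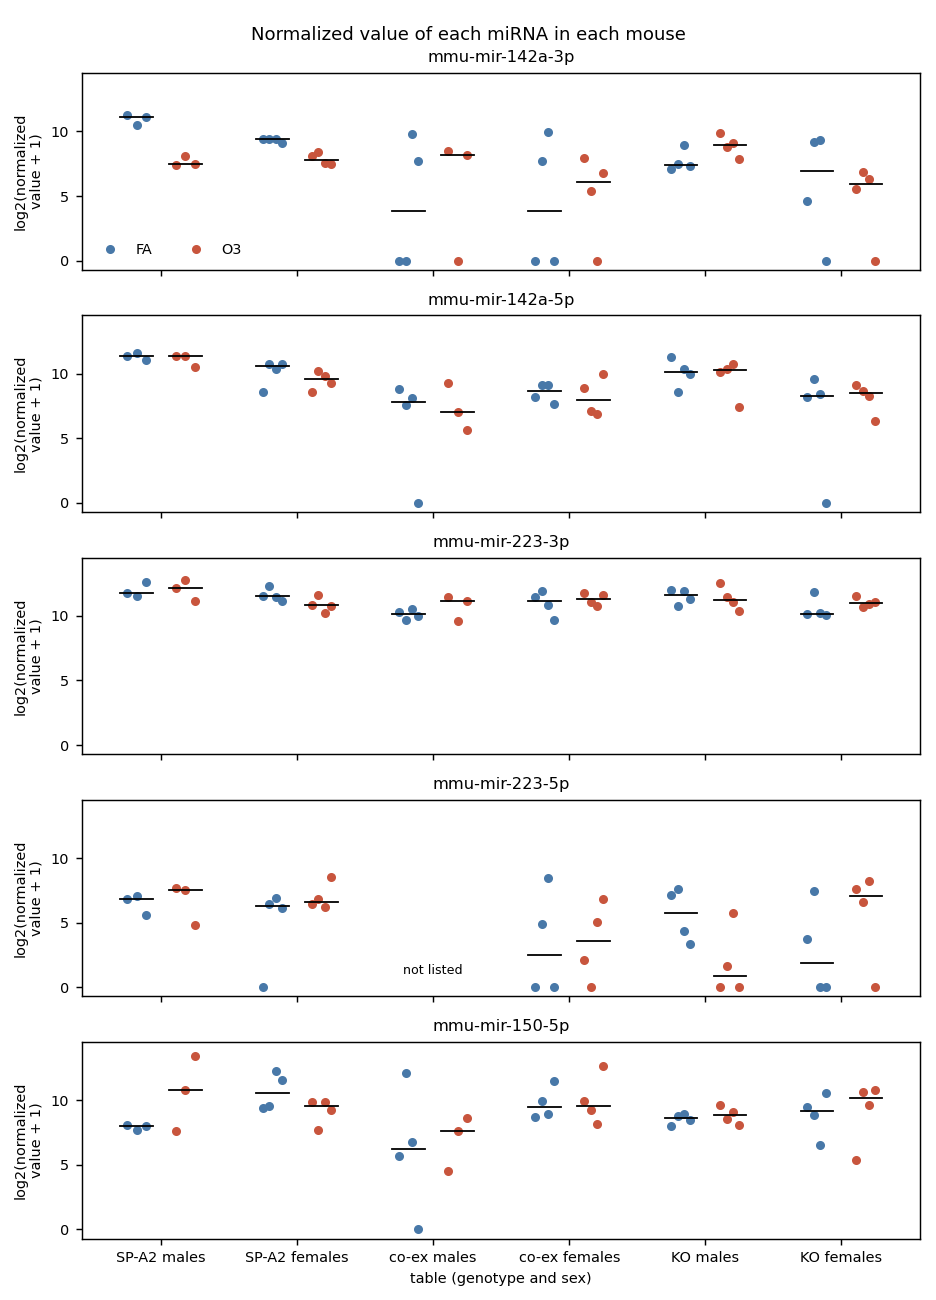
Each point is 1 mouse, with log2(normalized value + 1) on the vertical axis and the 6 tables on the horizontal axis, FA in blue and O3 in red, and the bar is the group median. mmu-mir-142a-3p separates FA from O3 in SP-A2 males and SP-A2 females, several mice of the co-ex and KO female tables lie at 0, and mmu-mir-223-3p lies in a narrow band.

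mmu-mir-142a-3p was lower after O3 in SP-A2 mice. In SP-A2 males its normalized values after FA were 2407, 1457 and 2256, and after O3 they were 172, 272 and 180. The groups did not overlap, every FA mouse was far above every O3 mouse, and the ratio of the means, O3 divided by FA, was 0.102. In SP-A2 females the values were 689, 669, 683 and 544 after FA and 270, 337, 185 and 181 after O3, again without overlap, with a ratio of the means of 0.376. On the scale of log2(normalized value + 1) the O3 minus FA difference was -3.28 ± 0.40 (SE) in SP-A2 males and -1.45 ± 0.38 in SP-A2 females. These values were known when the members were chosen, so they are a description and no p is given for them.

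In the other genotypes mmu-mir-142a-3p did not separate the exposures. KO males had 135, 181, 502 and 158 after FA and 928, 434, 561 and 237 after O3, so that no O3 mouse lay below the FA median, and the difference was 1.20 ± 0.68 (SE). KO females had 23.6, 591, 660 and 0 after FA and 46.7, 116, 80.5 and 0 after O3. Co-ex males had 0, 0, 897 and 208 after FA and 353, 0 and 295 after O3, and co-ex females had 0, 208, 1004 and 0 after FA and 251, 41.6, 0 and 106 after O3. In these 3 tables the FA values spread from 0 to 660, 897 and 1004, and the O3 values lay within that range. In KO females all 4 O3 mice were below the FA median. The ratio of the means, O3 divided by FA, was 0.191 in KO females and 0.329 in co-ex females, both below the 0.376 of SP-A2 females. It was 0.782 in co-ex males and 2.22 in KO males. On the log2 scale the difference was -1.10 ± 2.30 (SE) in KO females and 0.61 ± 2.70 in co-ex females.

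The 5p arm of the same hairpin overlapped between the exposures in every table. In SP-A2 males mmu-mir-142a-5p was 2574, 3078 and 2109 after FA and 2580, 2698 and 1448 after O3. The groups overlapped, and the difference was -0.24 ± 0.38 (SE, limma, adjusted p = 0.811). In SP-A2 females it was 386, 1726, 1314 and 1747 after FA and 385, 1181, 917 and 626 after O3, with a ratio of the means of 0.601 and all 4 O3 mice below the FA median (limma, adjusted p = 0.676). In the other 4 tables the ratio of the means was 0.848 in KO males, 0.977 in KO females, 1.07 in co-ex females and 1.19 in co-ex males, and in each the groups overlapped.

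The ratio of the 2 arms within a mouse does not depend on the scaling of its library. In SP-A2 males the ratio of mmu-mir-142a-5p to mmu-mir-142a-3p reads was 1.07, 2.11 and 0.934 after FA and 14.96, 9.89 and 8.02 after O3. The ratio was near 1 in 2 of the 3 FA mice and highest among them in the other, and all 3 O3 mice were above it. These ratios rest on 1211 to 1922 reads of the 3p arm after FA and 191 to 373 after O3, and 1536 to 3694 reads of the 5p arm after O3. In SP-A2 females the ratio was 0.561, 2.58, 1.92 and 3.21 after FA and 1.42, 3.51, 4.93 and 3.45 after O3, and the groups overlapped. In KO males the ratio was 18.2, 2.10, 2.56 and 6.36 after FA and 1.21, 3.01, 3.12 and 0.728 after O3, with the medians in the opposite order to those of the SP-A2 tables. In KO females the median ratio, with 0.5 added to the reads, was 1.13 after FA and 6.76 after O3, and the groups overlapped. Their mean log2 difference was 2.90, beside 3.05 in SP-A2 males, but 1 KO female in each group had the 3p arm at 0. The one after FA had the 5p arm at 0 too, so its ratio of 1 comes only from the added 0.5. The one after O3 had 78 reads of the 5p arm and a ratio of 157. The value of 2.90 rests in part on these mice and is not set level with that of SP-A2 males. The medians were 6.21 and 1.80 in co-ex males and 29.4 and 5.64 in co-ex females, with overlap and with mice at 0.

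Over the 6 tables the log2 ratio of the miR-142a arms differed by 0.82 between O3 and FA, the mean of the table differences, which ran from -1.56 in KO males to 3.05 in SP-A2 males. It was positive in 4 tables and negative in 2, and the pooled SD between mice of a group was 3.55, wide because a 0 in 1 arm gives an extreme ratio. Across all mice the 5p arm had more reads than the 3p arm in 36 of 45, fewer in 8 and as many in 1, the KO female with both arms at 0. The 9 exceptions were 7 FA mice and 2 O3 mice, and they came from all 6 tables.

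mmu-mir-223-3p gives a second reference for the 3p arm of miR-142a, since it is also made across myeloid cells. The ratio of mmu-mir-223-3p to mmu-mir-142a-3p was 1.46 to 2.79 in SP-A2 males after FA and 12.6 to 26.1 after O3. In KO males it was 7.86 to 30.7 after FA and 3.74 to 6.49 after O3. The groups did not overlap in either table, and they were in opposite order. Of the single miRNAs listed for these tables, 22.3% (SP-A2) and 8.84% (KO) were also without overlap. How often ratios of other miRNAs separated the exposures was not counted, here or for the miR-142a arms. These separations are therefore given as values only and not as a trait of the miRNAs compared. In SP-A2 females the ratio of mmu-mir-223-3p to mmu-mir-142a-3p was 4.16 to 7.58 after FA and 6.56 to 9.79 after O3, with overlap. Over the 6 tables the mean log2 difference was 0.61, with 3 tables positive and 3 negative.

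**Figure D2:**
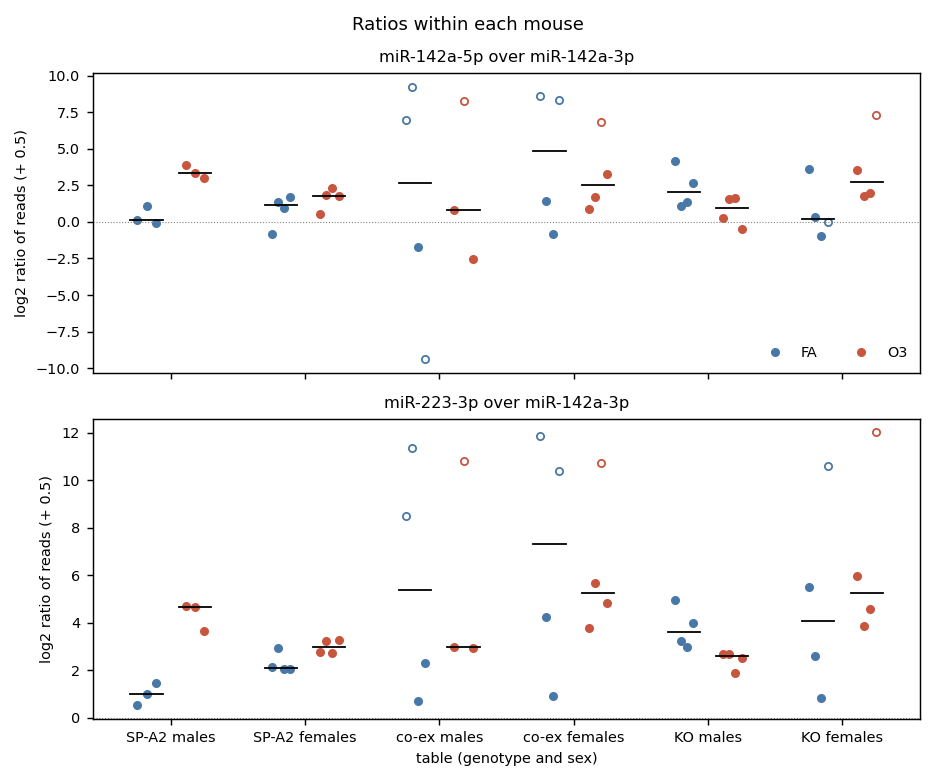
Each point is the log2 ratio of reads, with 0.5 added to each, within 1 mouse, for the 2 arms of miR-142a in the upper panel and for miR-223-3p over miR-142a-3p in the lower panel; open points have 1 or both miRNAs at 0 and the bar is the group median. In SP-A2 males the O3 points lie above all FA points in both panels, and in KO males they lie below all FA points in the lower panel.

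mmu-mir-223-3p, the myeloid strand, had the highest mean of the members in every table. It ranked 37 to 58 among the miRNAs of a table. Its values in SP-A2 males were 3505, 2939 and 6299 after FA and 4504, 6985 and 2266 after O3, and in KO males 4134, 1724, 3953 and 2538 after FA and 5925, 2820, 2100 and 1347 after O3. These 2 tables had ratios of the means of 1.08 and 0.987. In SP-A2 females the values were 3011, 5069, 2842 and 2293 after FA and 1833, 3188, 1219 and 1776 after O3, a difference of -0.74 ± 0.36 (SE, limma, adjusted p = 0.457). In KO females the values were 1099, 3631, 1189 and 1083 after FA and 2953, 1679, 1915 and 2125 after O3, so that all 4 O3 mice lay above the FA median and 1 FA mouse lay above them all (limma, adjusted p = 0.763). The mean difference over the 6 tables was 0.09 on the log2 scale, positive in 4 and negative in 2, with a pooled SD of 0.68 (permutation of exposure within tables with 100000 resamples, two-sided, p = 0.677, adjusted over 6 such tests p = 0.749).

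mmu-mir-223-5p, the minor strand, had fewer reads than mmu-mir-223-3p in all 38 mice in which both were listed. In KO males it was 140, 197, 19.7 and 9.27 after FA and 0, 2.21, 53.9 and 0 after O3. The values after FA were higher in the medians, but the groups overlapped, and the difference was -3.76 ± 1.92 (SE, limma, adjusted p = 0.377). In KO females the order was the other way, with 12.6, 178, 0 and 0 after FA and 195, 95.1, 291 and 0 after O3 (limma, adjusted p = 0.763). In SP-A2 females it was 0, 86.2, 121 and 67.7 after FA and 86.2, 111, 74.7 and 361 after O3. Their male counterparts had values of 112, 131 and 48.1 after FA and 203, 187 and 27.3 after O3, and co-ex females had 0, 29.3, 348 and 0 after FA and 3.37, 0, 31.4 and 115 after O3.

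The ratio of mmu-mir-223-5p to mmu-mir-223-3p within a mouse differed by 0.32 on the log2 scale between O3 and FA over 5 tables, positive in 3 and negative in 2 (permutation within tables, two-sided, p = 0.749). Among single tables the exact permutation p-values ran from 0.0571 in SP-A2 females to 0.9 in SP-A2 males, where 3 mice against 3 cannot give less than 0.1. The 2 miR-223 arms were thus not shown to part in any table, and 9 of the 38 ratios rest on a 5p arm at 0.

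mmu-mir-150-5p, the lymphoid member, differed widely between mice of a group in most tables. In SP-A2 males it was 270, 207 and 251 after FA and 193, 1733 and 11021 after O3. The FA mice lay close together, 1 O3 mouse lay below them and the 2 others were far above. The ratio of the means was 17.8 and the difference was 2.68 ± 1.13 (SE, limma, adjusted p = 0.253). On the recovered reads it was 4.11 by edgeR (adjusted p = 0.123) and 4.08 by DESeq2 (adjusted p = 0.00068), which called 13.4% of the miRNAs tested in that table. Without the O3 mouse at 193, the difference was 4.17 (limma, adjusted p = 0.0243), and without the mouse at 11021 it was 1.26.

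In SP-A2 females the order was the other way, with 665, 767, 4909 and 3079 after FA and 914, 207, 943 and 592 after O3, a difference of -1.55 ± 0.68 (SE, limma, adjusted p = 0.378; DESeq2, -1.94, adjusted p = 0.0774, with 7.12% of the miRNAs tested called). In co-ex males the values were 50.9, 4485, 108 and 0 after FA and 22.0, 199 and 387 after O3, while co-ex females had 408, 967, 499 and 2937 after FA and 958, 597, 280 and 6283 after O3. In co-ex males after FA and in co-ex females after O3 a single mouse held most of the group's sum. KO males had 262, 434, 488 and 361 after FA and 777, 376, 557 and 275 after O3, and KO females had 707, 454, 93.4 and 1540 after FA and 41.4, 1612, 787 and 1745 after O3.

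Against mmu-mir-223-3p, as a lymphoid to myeloid ratio within a mouse, mmu-mir-150-5p differed by 0.42 on the log2 scale between O3 and FA over the 6 tables, positive in 3 and negative in 3 (permutation within tables, two-sided, p = 0.604). mmu-mir-150-5p exceeded mmu-mir-223-3p in 7 of 45 mice. After FA these were 2 SP-A2 females, 1 co-ex male, 1 co-ex female and 1 KO female, and after O3 they were 1 SP-A2 male and 1 co-ex female. The other strand, miR-150-3p, named here after its values were seen, was listed in 4 tables and was 120.9, 80.8, 0, 41.5 and 149 in the 5 mice of those tables with the highest mmu-mir-150-5p. It was below the 5p strand in 29 of 31 mice. The 2 exceptions were co-ex males, 1 with 40.4 of the 3p and 22.0 of the 5p strand after O3, and 1 with 356 of the 3p strand and the 5p strand at 0 after FA.

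Counted over the 6 tables, 1 of 29 member values passed an FDR of 0.1 in limma for O3 against FA, mmu-mir-142a-3p in SP-A2 males. Over all miRNAs the share that passed among males was 0.67% with SP-A2, 5.18% in KO and 0% in co-ex mice, and among females it was 1.38% in co-ex, 1.07% in SP-A2 and 0% in KO mice. As the values of mmu-mir-142a-3p were known beforehand, nothing is read from that count. In the 2 tables without a call, 8 of 234 miRNAs of co-ex males and 22 of 287 of KO females had an unadjusted p under 0.05. None of the other 23 member values passed, and their adjusted p ran from 0.253 to 0.984, with 2 under 0.05 before adjustment. Groups without overlap were found for 1 member each in SP-A2 males and SP-A2 females, both times mmu-mir-142a-3p, where 22.3% and 5.09% of all miRNAs had none. In the other tables no member was without overlap, and the share over all miRNAs was 7.26% in the males and 7.93% in the females of the co-ex line, and 8.84% and 4.18% in those of the KO line.

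**Figure D3:**
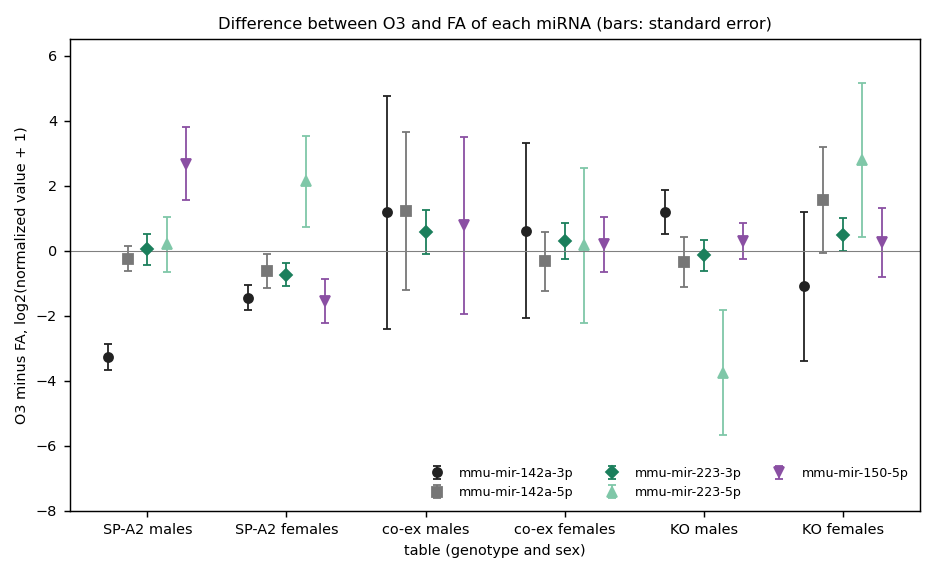
Points are the O3 minus FA difference on the scale of log2(normalized value + 1) for each member in each table, with the standard error from limma as bars and a line at no difference. mmu-mir-142a-3p in SP-A2 males lies at -3.28 with a short bar, and the longest bar, 3.58 log2 units, is that of mmu-mir-142a-3p in co-ex males, where 3 of 7 mice were at 0.

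Averaged over the tables that list it, no tested member was shown to differ between O3 and FA. The mean difference was 0.20 for mmu-mir-142a-5p, 0.30 for mmu-mir-223-5p and 0.44 for mmu-mir-150-5p on the log2 scale (permutation within tables, two-sided, p = 0.732, 0.749 and 0.526). After adjustment over the 6 tests of this kind each p was 0.749. The table differences were negative in 4 of 6 tables for mmu-mir-142a-5p, and positive in 4 of 5 for mmu-mir-223-5p and in 5 of 6 for mmu-mir-150-5p. For mmu-mir-142a-3p the mean was -0.47, positive in 3 tables and negative in 3, given without a test.

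Whether the response to O3 differed between sexes or genotypes was asked with the interaction of table and exposure. The response of mmu-mir-142a-3p in SP-A2 males minus that in KO males was -4.48 ± 0.84 (SE), and this was 1 of 42 member values over 9 pairs of tables that passed an FDR of 0.1. It shares its SP-A2 males with the values known beforehand, so nothing further is read from it, and without SP-A2 male FA replicate 1 or 3 it did not pass, at -4.34 and -4.39. The share of all miRNAs that passed was 0.312% for SP-A2 against KO males, 0.282% for SP-A2 males against SP-A2 females and 0% for the other 7 pairs. The response of mmu-mir-150-5p in SP-A2 males minus that in SP-A2 females was 4.22 ± 1.43 (SE, limma, adjusted p = 0.637), and that of mmu-mir-223-5p in KO males minus KO females was -6.55 ± 3.00 (limma, adjusted p = 0.456). Both had opposite signs in the 2 sexes, and neither passed in limma. edgeR on the recovered reads called the mmu-mir-150-5p difference, at 6.13 (adjusted p = 0.085). Without SP-A2 male O3 replicate 1, the mouse at 193 and the one that went against the other 2, the mmu-mir-150-5p value was 5.72 (limma, adjusted p = 0.0131). Over the 14 mice left out in turn the value ran from 2.81 to 5.72, and in the other 13 cases it did not pass.

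Levels were compared between sexes and genotypes on reads scaled together with TMM factors and given as CPM, a count scaled to the same library total in every mouse. With all 45 mice on 1 scale, over the 206 miRNAs listed in all tables, SP-A2 males after FA had the highest mean of mmu-mir-142a-3p, 2288 ± 572 CPM (SD, n = 3), and SP-A2 females after FA came next with 854.5 ± 122 (n = 4). These were the only neighbours in the order of the 12 groups that did not overlap. After O3 the SP-A2 males were at 215 ± 59.1 (n = 3), in the ninth place, and KO females at 73.1 ± 64.1 (n = 4), in the last place. KO males after O3 were in the third place at 518 ± 262 (n = 4).

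For mmu-mir-142a-5p the SP-A2 males after FA and after O3 were in the first and second places, at 2897 ± 513 and 2322 ± 754 CPM (SD, n = 3 each), and co-ex males after FA were last at 234 ± 164 (n = 4). For mmu-mir-223-3p the range of the groups was narrower, from 4791 ± 2139 (n = 3) in SP-A2 males after FA to 1232 ± 210 (n = 4) in co-ex males after FA. For mmu-mir-150-5p it ran from 4355 ± 5862 (n = 3) in SP-A2 males after O3 to 203 ± 171 (n = 3) in co-ex males after O3. Every neighbouring pair of groups overlapped in these 3 miRNAs.

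**Figure D4:**
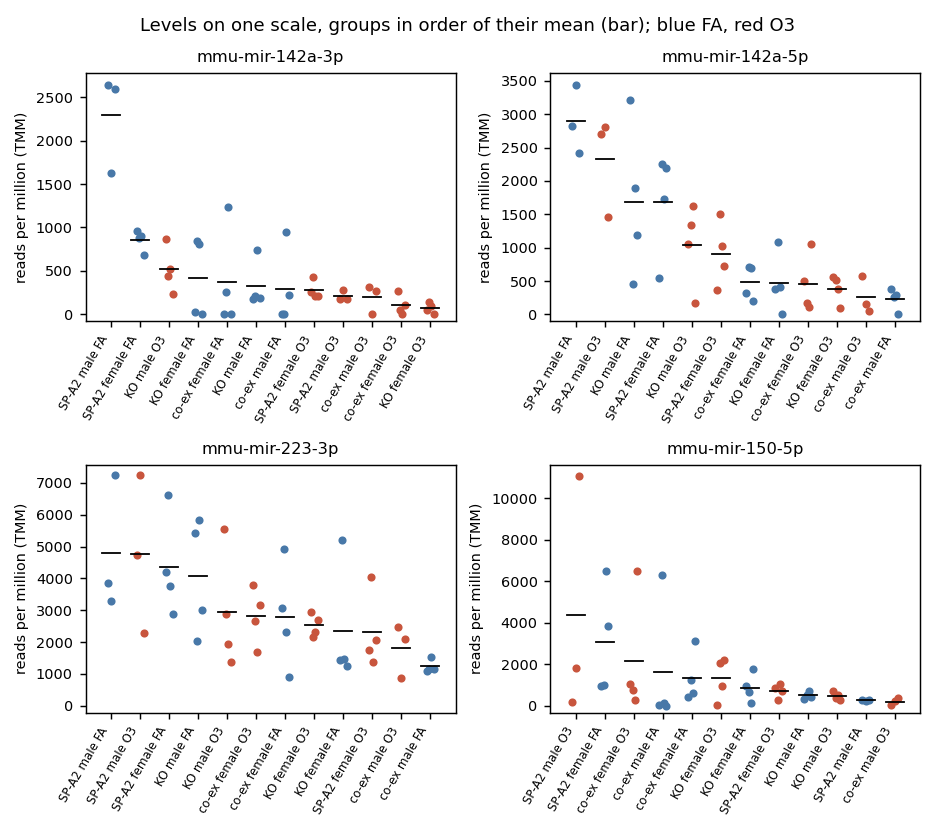
Points are CPM after TMM scaling in each mouse on a linear axis, with the 12 groups in the order of their mean, shown as a bar, and FA in blue and O3 in red. mmu-mir-142a-3p falls off after the first group, at 2288 CPM, while the groups of mmu-mir-223-3p overlap along the whole order.

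Of 84 member contrasts between pairs of tables, 42 within FA and 42 within O3, 3 passed an FDR of 0.1 in edgeR's quasi-likelihood test. The share of all miRNAs without overlap was not counted for contrasts between tables. Groups without overlap in these contrasts, also between the sexes, are therefore given as values only and not as a trait of the members. After FA mmu-mir-142a-3p was 2494 ± 661 CPM (SD, n = 3) in SP-A2 males and 317 ± 230 (n = 4) in KO males, without overlap, a log2 difference of 2.97 (edgeR, adjusted p = 0.027), where 0.312% of all miRNAs were called. This is the table of FA values known beforehand, set here against another genotype, so nothing further is read from the call. The call was lost without any 1 of SP-A2 male FA replicates 1 and 3, SP-A2 male O3 replicates 2 and 3, and KO male FA replicates 1, 2 and 4, with differences of 2.77 to 3.62 over all 14 mice left out in turn.

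After FA mmu-mir-223-3p was 4438 ± 2581 CPM (SD, n = 3) in SP-A2 males and 1094 ± 215 (n = 4) in co-ex males, without overlap, a log2 difference of 2.02 (edgeR, adjusted p = 0.0377). In that contrast 12.3% of all miRNAs were called, so that the member was 1 of 28. The call was lost without SP-A2 male FA replicate 3, at 1.44, and without co-ex male FA replicate 2, at 1.67. mmu-mir-142a-5p was higher in the same direction, at 2550 ± 188 against 208 ± 162 CPM after FA (log2 difference 3.62, edgeR, adjusted p = 0.101) and 2768 ± 1246 against 254 ± 288 after O3 (3.44, adjusted p = 0.217), without overlap in either. Neither passed in this test. DESeq2 called both (adjusted p = 0.0109 and 0.0604), with 26.4% and 16.4% of the miRNAs tested called, and median-ratio factors called the FA contrast (edgeR, adjusted p = 0.0878). Without co-ex male FA replicate 4, the mouse with mmu-mir-142a-5p at 0, both passed (edgeR, adjusted p = 0.039 and 0.0322), and without co-ex male O3 replicate 3 the FA contrast did (edgeR, adjusted p = 0.0925). After O3 9.69% of all miRNAs were called between these 2 tables.

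After O3 mmu-mir-150-5p was 4795 ± 6478 CPM (SD, n = 3) in SP-A2 males and 443 ± 144 (n = 4) in KO males, a log2 difference of 3.44 (edgeR, adjusted p = 0.0708), where 1.88% of all miRNAs were called. The groups overlapped, and without SP-A2 male O3 replicate 3 the difference was 1.24 and did not pass. The call was lost with median-ratio factors (3.21) and with edgeR's filter on low counts (3.33), and without any 1 of SP-A2 male FA replicates 1, 2 and 3, SP-A2 male O3 replicate 2, KO male FA replicate 4 and KO male O3 replicates 1, 2 and 4.

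No member passed in edgeR between males and females of a genotype. In SP-A2 mice after FA, mmu-mir-142a-3p was 2370 ± 621 CPM in the 3 males and 898 ± 115 in the 4 females (SD), without overlap (edgeR, adjusted p = 0.181). mmu-mir-150-5p was the other way, at 282 ± 40.5 in males and 3215 ± 2742 in females, again without overlap (edgeR, adjusted p = 0.206). DESeq2 called both (adjusted p = 0.00655 and 0.0078), with 8.29% of the miRNAs tested called. The FA values of mmu-mir-142a-3p in both tables were known beforehand, so nothing is read from its call. After O3 mmu-mir-150-5p had the reverse order, at 4754 ± 6494 in SP-A2 males and 778 ± 363 in SP-A2 females, with overlap (edgeR, adjusted p = 0.225). DESeq2 called it there (adjusted p = 0.064), and also mmu-mir-142a-5p, higher in males (adjusted p = 0.0981), with 9.35% of the miRNAs tested called. In SP-A2 mice the share of all miRNAs called between the sexes was 0.282% after FA and 0.282% after O3, and in co-ex and KO mice it was 0% in all 4 contrasts. mmu-mir-223-3p, which comes from the X chromosome, was after FA 4977 ± 2321 CPM in SP-A2 males (SD, n = 3) and 4594 ± 1729 in SP-A2 females (n = 4; edgeR, adjusted p = 0.988). In KO mice after FA it was 3721 ± 1592 in males and 2135 ± 1527 in females (n = 4 each; edgeR, adjusted p = 0.753). In co-ex mice after FA the order was the other way, at 1114 ± 253 in males and 2644 ± 1685 in females, with overlap (n = 4 each; edgeR, adjusted p = 0.646). Between co-ex and KO males 1.81% of all miRNAs were called after FA and 0.905% after O3, none of them a member in edgeR, and between the genotypes of females the share was 0% in all 6 contrasts.

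The other blood-cell miRNAs were read as a list of 17, of which 16 were in at least 1 table and 11 in all. For O3 against FA, 1 of the list's 16 values in SP-A2 females passed an FDR of 0.1 in limma, and none passed in the other tables. Over all miRNAs of SP-A2 females 1.07% passed. The list was chosen with earlier results known, so nothing is read from that count. The 1 that passed was miR-155-5p, which is made by activated immune cells. It was lower after O3, at a log2 difference of -2.42 ± 0.49 (SE, limma, adjusted p = 0.0454). In SP-A2 males the same miRNA differed by 2.64 ± 0.65 in the other direction (limma, adjusted p = 0.118). The list's median share of the listed reads was 14.6% after FA and 6.46% after O3 in SP-A2 females, and 24.4% and 19.1% in SP-A2 males. For the KO line the medians were 8.07% and 8.17% among females and 15.2% and 11.5% among males. Co-ex mice had 12.3% and 7.59% among females and 5.08% and 3.78% among males. Much of the SP-A2 share after FA was 1 miRNA, miR-21a-5p. Its mean normalized value was 145100 in SP-A2 males, beside list sums of 186800 to 223900 per mouse. In SP-A2 females it was 63980, beside 83420 to 133400. The share is therefore not read as a change of the whole list. The median O3 minus FA difference of the list was -0.25 in SP-A2 males beside 0.17 over all miRNAs, and -0.30 beside 0.18 in SP-A2 females. It was -1.22 beside -0.29 in KO males and 1.61 beside 0.45 in their females, and in the co-ex line -0.58 beside 0.64 for males and -0.57 beside 0.31 for females. For the members the medians among males were 0.05 with SP-A2, -0.15 in KO and 0.98 in co-ex mice, the last over 4 members, and among females -0.74, 0.49 and 0.20 in the same order.

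The miRNAs whose levels ran most alike with each member were found by Spearman's rho over 45 mice, after centring each table, among the 206 miRNAs listed in all tables. The mice share tables and scaling, so the values are a description. For mmu-mir-142a-3p they were miR-30e-5p (rho = 0.624), miR-3965 (0.426) and miR-8112 (0.42), and its own 5p arm was in the tenth place (0.36). For mmu-mir-142a-5p they were miR-16-5p (0.669), let-7g-5p (0.604) and let-7f-5p (0.596), and for mmu-mir-223-3p they were miR-26b-5p (0.699), miR-24-3p (0.668) and miR-146b-5p (0.622). For mmu-mir-150-5p the closest were miR-146a-5p (0.446), miR-139-5p (0.438) and miR-326-3p (0.398). mmu-mir-150-5p had -0.177 with mmu-mir-142a-3p, -0.112 with mmu-mir-223-3p and 0.0267 with mmu-mir-142a-5p, while mmu-mir-142a-3p and mmu-mir-223-3p had 0.41.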

How the data were processed

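Small RNA libraries (NEXTflex kit, HiSeq 2500) were made from AM of single mice. The deposited signal values are reads that the authors divided by a scaling factor for each mouse, in 6 tables normalized separately, 1 per genotype and sex. The submitters' processing notes name CASAVA and edgeR, and the aligner and build are not given in the sources used here. The tables also hold columns of the authors' own comparison (p and q values and ranks), which were not used.

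Whole reads were recovered from the steps of the values (100% whole within 0.01 reads), although only 8 mice had at least 100 values near a step. O3 and FA were compared within a table on log2(normalized value + 1) over all its miRNAs with limma 3.58.1 (R 4.3.3), and responses with the interaction of 2 tables. Levels were compared on reads with edgeR 4.0.16 (quasi-likelihood, TMM). p-values were adjusted by Benjamini-Hochberg at an FDR of 0.1. DESeq2 1.42.0, other pseudocounts, filters, scalings, a replicate block and leaving out each mouse were the alternatives. Ratios used reads + 0.5, with 100000 permutations within tables. The scripts were tested on simulated data.

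The members, the marker lists and the rule for named miRNAs (the members, lists with at most 4 examples, and the 3 miRNAs most like each member) were chosen with earlier results of these data known. The O3 response of miR-142a-3p, and ratios that hold it, are therefore given without p, including permutation tests that had been planned. The listed reads are not library depths, and no 2 mice of a group agreed within sampling noise. The mature sequence of miR-150-5p is not shown.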

Additional observations from a re-analysis of the deposited data

Results flagged for a closer look

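Of the 44 groups of 4 mice checked, 9 had a mouse far from the others by Dixon's test, where chance would give about 1 in 20 groups if values were normally distributed. These values are skewed and some are 0, so the 9 are listed as values only. For mmu-mir-150-5p these were a co-ex male after FA at 4484.9, with the next mouse at 108.42, and a co-ex female after O3 at 6283.1, with the next at 958.33. For mmu-mir-223-5p they were an SP-A2 female after O3 at 360.84 (next 110.83), a co-ex female after FA at 347.96 (next 29.299), a KO male after O3 at 53.893 (next 2.2138) and a KO female after FA at 177.72 (next 12.551). mmu-mir-142a-3p had a low SP-A2 female after FA at 543.7, with the next at 668.88, and a high KO male after FA at 502.46, with the next at 180.51. mmu-mir-223-3p had a high KO female after FA at 3631.4, with the next at 1188.7. Values are normalized, and 4 of the 9 were in mmu-mir-223-5p, the member with the fewest reads. The high KO female after FA was the same mouse, replicate 2, for both miR-223 arms.

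The response of mmu-mir-142a-3p to O3 in SP-A2 males minus that in KO males was -4.4794 on the log2 scale and passed an FDR of 0.1 in the interaction of table and exposure (limma). It did not pass without SP-A2 male FA replicate 1 (-4.34) or 3 (-4.39). All 3 SP-A2 males after O3 were below the FA mice, and no KO male after O3 was below the FA median. The value was known in part when the members were chosen, so nothing is read from the call.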

How the results depend on the processing

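The counts of members past an FDR of 0.1 were 1 for O3 against FA, 1 for the responses and 3 for the levels. DESeq2 on the recovered reads gave 4 for O3 against FA, where it called 8.57% of all miRNAs tested, namely mmu-mir-142a-3p and mmu-mir-150-5p in both SP-A2 tables. For the levels it gave 14, where it called 6.02% of all: 12 with SP-A2 males on one side and 2, mmu-mir-223-3p and mmu-mir-142a-5p, between co-ex and KO males after FA. edgeR on the recovered reads gave 2 for the responses, adding mmu-mir-150-5p between SP-A2 males and females, where it called 0.165% of all. Leaving out 1 mouse at a time gave 1 to 2, 0 to 2 and 0 to 5. Replicate numbers were not taken as pairs in the main test. Correlations of deviations between same-numbered FA and O3 mice ran from -0.138 to 0.271. Those of differently numbered mice were not computed, so these values cannot show whether the numbers pair the mice. With the replicate block the count for O3 against FA was again 1 and mmu-mir-142a-3p in SP-A2 males was -3.28.

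Near 0 the sign was not stable. The mean difference over tables was -0.048 for mmu-mir-142a-5p with a pseudocount of 10 and -0.022 for mmu-mir-223-3p with median-ratio rescaling. The ratio of miR-150-5p to miR-223-3p was -0.205 in the 43 mice with at least 10 reads of both, an alternative chosen after seeing the data. Without 1 mouse, the mmu-mir-142a-5p difference in SP-A2 males ran from -0.40 to 0.045, the ratio of the miR-223 arms from -0.048 to 0.74, and the means over tables from -0.16 to 0.37 for mmu-mir-142a-5p and from -0.024 to 0.67 for mmu-mir-223-5p. The cause was not tested. Of 123 alternatives over 28 results, 108 were labelled the same, 3 reversed, 2 weaker and 10 stronger. Without 1 mouse, 654 of 695 values were labelled the same. Tested values were the same if they kept direction and side of the threshold. Counts were the same if they changed by no more than a set fold, so the level count falling from 3 to 2 at an FDR of 0.05 was the same. Ratios and means over tables of miR-142a-3p, given without a test, were the same if they kept direction and moved by less than the pooled SD, which was wide. Groups of 3 or 4 mice and members under 100 reads limit what could be detected.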
